A study of Macaca mulatta with 12 samples.

Results

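Corpora lutea taken on the same days of the late luteal phase, 14 to 16 days after the LH surge, were compared between animals whose progesterone was already low and animals whose progesterone was still high. The late regressed group holds 4 glands from animals with serum progesterone below 0.5 ng/ml, and the late functional group holds 4 glands from animals with serum progesterone above 1.5 ng/ml. These 8 arrays are all those carrying either label among the 12 arrays of the series. All 52707 probe sets other than array controls were compared. The other 4 arrays are mid-late glands from days 10 to 12. They entered the same fit, so that they share in the estimate of spread, and their means are given where they help to place a value.

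All glands came from untreated female rhesus macaques with normal menstrual cycles. Each whole gland was flash frozen at laparotomy, and its total RNA was labelled with biotin from an oligo-dT primer and hybridised to a rhesus expression array, 1 array per gland; the labels call the arrays biological replicates. Values are log2 RMA values as deposited, so that a difference of 1 is a 2-fold difference, and group values are mean ± SD over n = 4 arrays. Differences are late regressed minus late functional with the SE of limma's fit. A probe set was called where limma's p, adjusted over all probe sets by the Benjamini-Hochberg method, was below 0.05. A gene is represented by its probe set with the highest mean, and a level is set only against the same probe set on other arrays. Because whole glands were measured, fewer cells of a type and less RNA per cell cannot be told apart.

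The corpus luteum takes up and makes cholesterol, carries it into mitochondria and converts it to progesterone under the drive of luteinizing hormone. In a cycle without pregnancy, progesterone secretion stops first (functional regression), and the gland is dismantled afterwards. Macrophages are known to enter the gland as it regresses, and interferons are the signals by which infected or inflamed tissue raises antigen presentation and antiviral proteins.

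Of 15 genes listed as markers of steroid-making luteal cells, 10 had a probe set, and 0 of these lay below the level of the array's low-signal probe sets. CYP11A1, LHCGR, SCARB1, OXT and FOXL2 were not matched to a probe set under their symbol and are not analysed here. The 8 arrays did not form 2 tight groups. The root mean square difference between pairs of late functional arrays 1, 2 and 3 was 0.196 to 0.204. Late functional array 4 differed from those 3 by 0.340 to 0.347 and lay nearest to late regressed array 4, at 0.286. Late regressed array 1 differed from late functional arrays 1 to 3 by 0.289 to 0.304, and from the other late regressed arrays by 0.368 to 0.564. Late regressed arrays 2 and 3 stood apart on the first principal component, where their scores were 93.2 and 81.6. The 4 functional arrays spanned -20.3 to 2.67, and regressed arrays 1 and 4 took -8.07 and 12.6 (exact two-sided permutation p = 0.0857; the smallest p that 4 against 4 arrays can give is 0.0286). Results below are therefore also given without arrays 2 and 3, or without array 1. Both choices rest on the expression values alone, as the labels do not set these arrays apart. Array 1 was picked because it lay near the functional arrays, so leaving it out favours wider differences. The p-values and calls without it are descriptions and not independent support. Late regressed array 2 also had the widest gap between 3′ and 5′ control signal, 2.52 against 0.462 to 0.699 on the other late regressed arrays and 0.59 ± 0.04 in the late functional group (exact permutation p = 0.714). The part of RNA quality in the results was not tested beyond the fit with this gap as a covariate.

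Only 1 of 52707 probe sets was called, which is 0.0019%. Even so, 11.8% had an unadjusted p below 0.05, 6.4% higher and 5.45% lower in late regressed glands. Values of the groups did not overlap for 1229 probe sets that were higher (2.33%) and 1301 that were lower (2.47%). Over the 14132 genes, the 4 late regressed arrays all lay below the 4 late functional arrays for 464 (3.28%) and all above for 371 (2.63%), and by group means 49.3% of genes were the lower and 50.7% the higher in late regressed glands. These shares are the background for the counts that follow. The spread was wider within the late regressed group: over the 23752 probe sets whose mean over the 12 arrays was above the low-signal level, the median SD was 0.285 there and 0.155 in the late functional group, and it was the higher of the 2 for 78.3%. Without late regressed array 1, 924 probe sets were called (1.75%), as were 2.81% of genes (1.12% higher and 1.69% lower), and without late functional array 4, 149 were.

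The single called probe set was one of FAM210B, a mitochondrial protein tied to heme synthesis and iron import. Its value rose from 9.25 ± 0.18 in late functional to 10.20 ± 0.11 in late regressed glands, a 1.93-fold difference (log2 difference 0.95, SE 0.10, limma adjusted p = 0.0275). The late regressed arrays 1 to 4 read 10.25, 10.14, 10.09 and 10.33, and the late functional arrays 9.15, 9.06, 9.31 and 9.48. All 4 regressed glands were thus above all 4 functional ones, by a margin larger than the range within either group. The mid-late mean was 10.17 ± 0.09, beside the late regressed mean, so the late functional glands are the low group for this probe set. The call was kept in 4 of the 12 fits that left out 1 array, and it was lost with the 3′ to 5′ gap as a covariate and in a fit of only the 8 late arrays. Without late regressed arrays 2 and 3 the difference was 1.04 with an adjusted p of 0.0772 (limma). Of the gene's other 2 probe sets neither showed this difference: they gave -0.14 (adjusted p = 0.865) and -0.17 (adjusted p = 0.656), with overlapping groups.

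**Figure D1:**
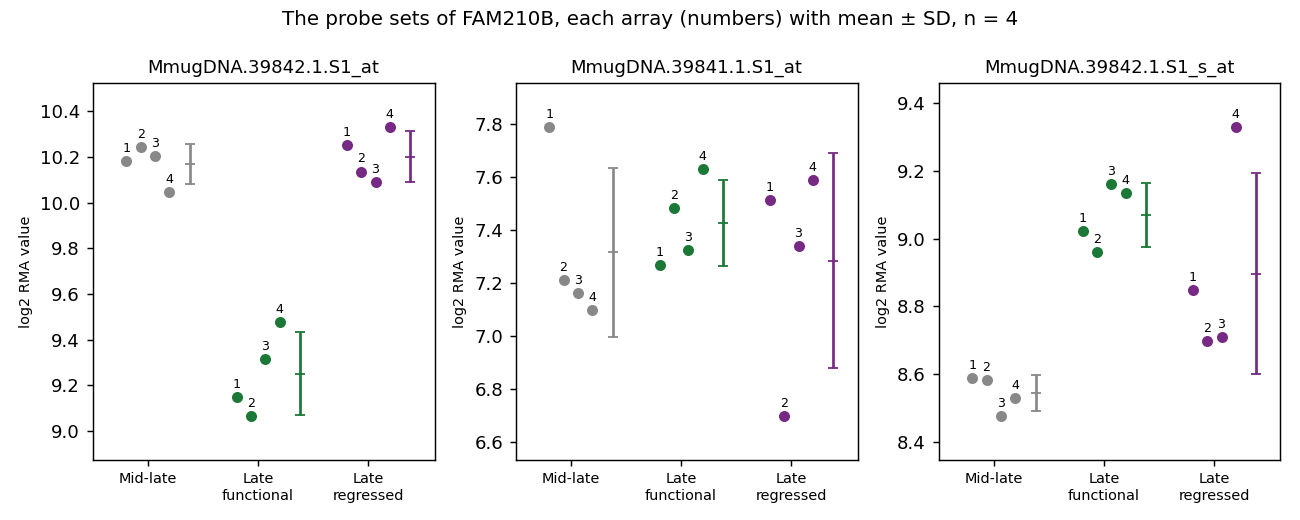
Log2 RMA values of the 3 probe sets matched to FAM210B on the 4 mid-late, 4 late functional and 4 late regressed arrays, with points numbered by array and bars giving mean ± SD. In the left panel the late regressed arrays sit at 10.09 to 10.33 and the late functional arrays at 9.06 to 9.48; in the other panels the late groups overlap.

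Genes of heme synthesis and mitochondrial iron handling did not share a direction. Of 19 measured genes, FAM210B included, 7 had the higher mean in late regressed glands and 12 the lower, with a median difference of -0.05. ALAD, an early enzyme of the heme pathway, read 5.47, 4.73, 4.84 and 4.68 on the late regressed arrays and 5.81, 6.12, 5.71 and 5.53 on the late functional ones (log2 difference -0.86, SE 0.19, limma adjusted p = 0.152). The groups did not overlap, although array 1 came within reach of the lowest functional array. SLC25A37, a mitochondrial iron importer, had a log2 difference of -1.04, with array 1 at 9.39 among the functional values of 9.07 to 9.56 and arrays 2 and 3 at 7.17 and 7.71. The erythroid marker genes, which would move with blood in the tissue, included 4 of 6 below the low-signal level, and HBB overlapped between the groups.

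Genes of the interferon response and of antigen processing were lower by group means in late regressed glands. Of 23 measured genes, 19 had the lower mean and 4 the higher, and the median difference was -0.52 against 0.003 over all genes. For 9 of the 23, every late regressed array lay below every late functional array, where 3.28% of all genes do so. None was called by limma, and 9 of the lower and 2 of the higher members had an unadjusted p below 0.05. Over all genes, 7.78% were lower and 8.34% higher at that threshold. This list kept its median without late regressed arrays 2 and 3 (-0.65) and without array 1 (-0.60). The mean of the list, set against its late functional mean, was -0.57, -0.94, -0.18 and -0.79 on late regressed arrays 1 to 4, and 0.09, 0.12, -0.00 and -0.21 on the late functional ones. Late regressed array 3 thus lay just inside the functional range and the other 3 below it.

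The peptide transporter and the immunoproteasome supply peptides to MHC class I. TAP1, one chain of the transporter, read 8.77, 7.88, 8.49 and 7.59 in late regressed glands and 9.97, 9.82, 9.66 and 9.10 in late functional ones (log2 difference -1.45, SE 0.32, limma adjusted p = 0.160). TAP2, its partner chain, read 7.45, 7.43, 7.62 and 7.40 against 8.39, 8.29, 8.16 and 7.63. In both genes the groups were separate, and in both late functional array 4 was the functional array nearest to the regressed ones. In TAP2 it all but met regressed array 3. TAP2 has 3 probe sets, and only 1 of its others had a difference in the same direction. PSMB10, an inducible catalytic subunit of the immunoproteasome, averaged 8.60 ± 0.28 against 9.58 ± 0.25 (log2 difference -0.98, SE 0.18, limma adjusted p = 0.110). The late regressed arrays ran from 8.31 to 8.90 and the late functional ones from 9.21 to 9.72. PSMB8, another inducible subunit, had a difference of -1.28, but late functional array 4 at 8.21 fell below late regressed arrays 1 and 3 at 8.50 and 8.92. Beta-2-microglobulin (B2M), the invariant chain of class I molecules, differed little, with a difference of -0.09 (SE 0.07) and overlapping groups. TAP1, TAP2, PSMB8, ISG15, IFIT1 and GBP1 were picked for naming after their values were seen.

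Among interferon-induced antiviral genes, IFI27 read 12.11, 11.04, 11.73 and 11.92 in late regressed glands and 13.12, 13.17, 12.95 and 13.18 in late functional glands (log2 difference -1.40, SE 0.27, limma adjusted p = 0.118). The functional arrays were tightly grouped and all above the regressed ones. IFIT1, which binds foreign RNA caps, had a difference of -1.49 (SE 0.29, limma adjusted p = 0.118), with 6.83 to 7.94 against 8.37 to 9.35. ISG15, a ubiquitin-like modifier, had a difference of -1.53 (SE 0.48, limma adjusted p = 0.260), and its highest regressed array, at 7.50, lay below the lowest functional one, at 7.77. MX1 and IFI44 did not overlap between the late groups either, yet their SDs over the mid-late arrays were 1.52 and 1.26, which the shared fit counts as spread. Members that did not follow were IFIT2 (0.09), IRF8 (0.12), GBP2 (0.32) and OAS1 (0.67). OAS1, a sensor of double-stranded RNA, has 5 probe sets that disagree: 2 lay higher without overlap in late regressed glands, 2 lay lower without overlap at -1.08 and -1.26, and 1 overlapped, so its direction is uncertain.

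A pair of genes outside that list were among the 8 with the smallest p-values. SAMD9L, an interferon-inducible antiviral gene, read 8.08, 8.16, 8.13 and 7.82 in late regressed glands and 9.49, 9.53, 9.03 and 9.55 in late functional glands, a 2.55-fold difference (log2 difference -1.35, SE 0.17, limma adjusted p = 0.0506). ERAP2, an aminopeptidase that trims peptides for class I molecules, read 4.86, 3.91, 4.42 and 4.57 against 6.04, 6.24, 6.14 and 6.01 (log2 difference -1.67, SE 0.21, limma adjusted p = 0.0506). For each gene a gap wider than either group's range parted the 2 groups. Each gene had another probe set without overlap in the same direction, at -1.32 for SAMD9L and -1.60 for ERAP2, while the last probe set of SAMD9L differed by 0.07 at low signal.

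The late functional glands were again the group that differed from mid-late for part of these genes. Mid-late means were 7.88 ± 0.37 for SAMD9L and 4.53 ± 0.40 for ERAP2, close to the late regressed means of 8.05 ± 0.16 and 4.44 ± 0.40. For IFI27 the mid-late mean of 12.73 ± 0.58 lay nearer to the late functional mean, with 1 mid-late array low. The list's mean on the 4 mid-late arrays, set against its late functional mean, ran from -1.34 to -0.34. Over all genes without overlap, the mid-late mean was nearer to late regressed for 159 of the 464 lower genes and for 66 of the 371 higher ones.

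**Figure D2:**
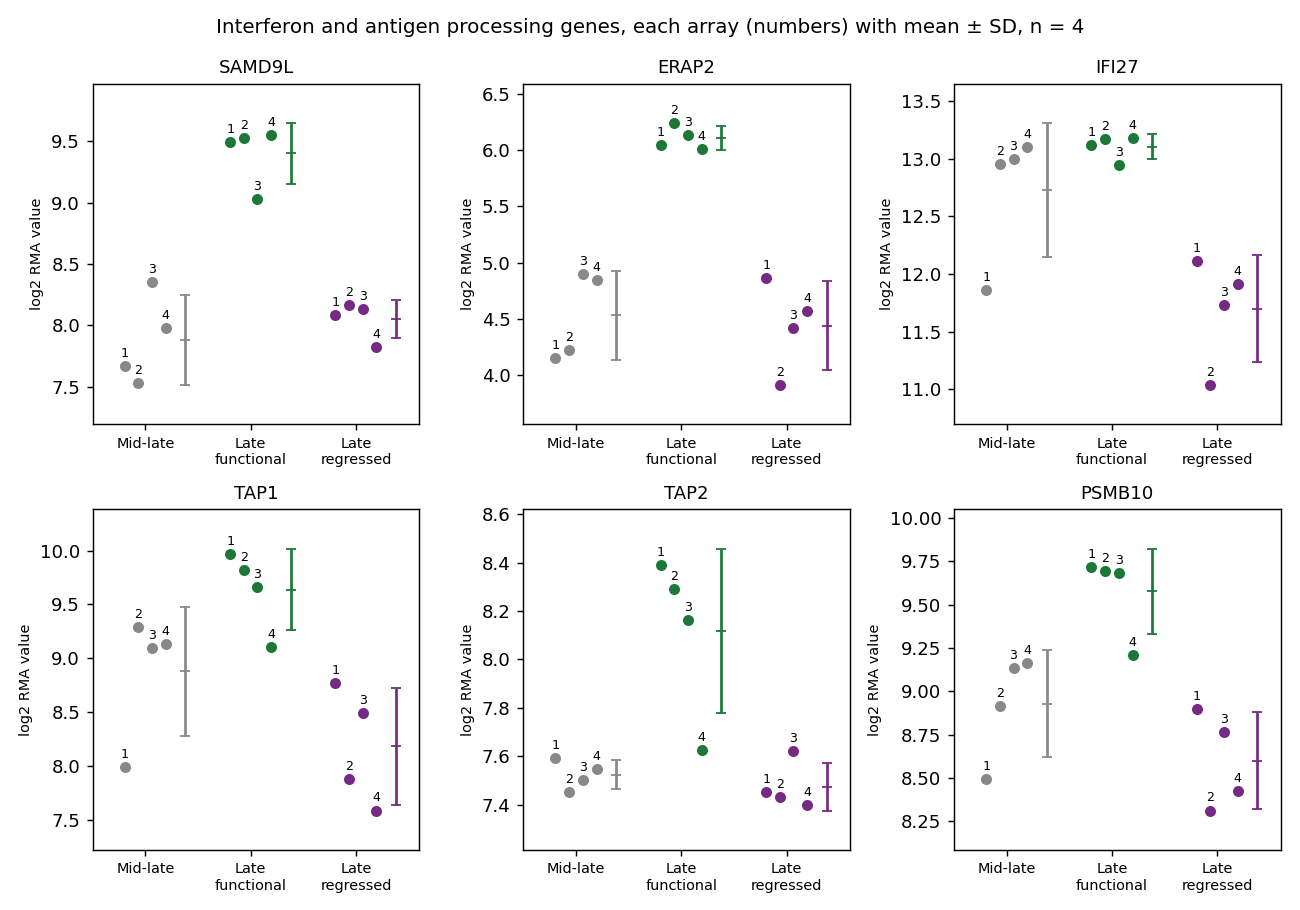
Log2 RMA values of 6 interferon and antigen processing genes on each of the 12 arrays, with points numbered by array and bars giving mean ± SD. In every panel the 4 late regressed arrays lie below the 4 late functional arrays, with the narrowest gap in TAP2; mid-late arrays of SAMD9L, ERAP2 and TAP2 sit beside the late regressed ones.

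The pathway from cholesterol to progesterone was lower in late regressed glands by group means, but not on every array. Of 20 measured genes, 17 had the lower mean and 3 the higher, with a median difference of -0.50. For 2 genes, CYP19A1 and GATA6, the groups did not overlap, where 3.28% of all genes lay lower without overlap. None was called by limma, and 9 of the lower and 1 of the higher had an unadjusted p below 0.05, where 7.78% and 8.34% of all genes did so. The list's mean, set against its late functional mean, was -1.28 and -1.27 on late regressed arrays 2 and 3 and -0.53 on array 4, but -0.08 on array 1, within the functional range of -0.23 to 0.16. Its median was -0.08 without arrays 2 and 3 and -0.66 without array 1, and in the fit without array 1, 5 of the 20 were called lower, where 1.69% of all genes were.

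STAR delivers cholesterol to the inner mitochondrial membrane, the acutely regulated step of steroid synthesis. Late functional arrays read 13.63, 13.69, 13.53 and 13.15, and late regressed arrays 1 and 4 read 13.54 and 11.92, against 10.14 and 9.68 on arrays 2 and 3. Array 1 was therefore at the functional level although its serum progesterone was below 0.5 ng/ml, and the other 3 were lower. The group difference of -2.18 (SE 0.64, limma adjusted p = 0.247) became -0.77 without arrays 2 and 3, and -2.92 with an adjusted p of 0.0104 without array 1. HSD3B2, the enzyme that makes progesterone from pregnenolone, behaved differently. It read 8.52, 9.04, 7.93 and 8.70 in late regressed glands, array 1 included, and 10.52, 10.43, 9.88 and 9.04 in late functional glands (log2 difference -1.42, SE 0.33, limma adjusted p = 0.174). Late functional array 4 stood with the regressed glands, and the groups met only there. Without arrays 2 and 3 the difference was nearly as large, -1.36, and both late means lay below the mid-late mean of 11.66 ± 0.38.

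CYP19A1, the aromatase that makes oestrogens, had the widest difference downward among the genes that met the naming rule, 9.16-fold (log2 difference -3.20, SE 0.59, limma adjusted p = 0.111). It read 10.32, 7.15, 7.43 and 9.33 in late regressed glands and 11.95, 12.08, 11.59 and 11.38 in late functional glands. All 4 regressed arrays, array 1 included, lay below the functional ones. MRAP, which carries melanocortin receptors to the cell surface, read 7.70, 4.52, 4.31 and 5.76 against 8.42, 8.53, 7.98 and 7.55 (log2 difference -2.55, SE 0.59, limma adjusted p = 0.176). Here array 1 lay within the functional range. The limma adjusted p of 0.00445 in the fit without it rests on that choice of array.

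The electron carriers of mitochondrial steroid synthesis showed the same split. FDXR, ferredoxin reductase, had a log2 difference of -1.35, with arrays 2 and 3 at 7.78 and 7.74 and array 1 at 9.82, inside the functional range of 9.20 to 10.37. FDX1, the ferredoxin it feeds, had arrays 1 and 4 at 12.60 and 12.58 and arrays 2 and 3 at 11.67 and 11.36. The inhibin alpha subunit gene INHA, named after its values were seen, showed it too. It read 12.25 and 12.47 on late regressed arrays 1 and 4, 9.65 and 9.49 on arrays 2 and 3, and 12.26 to 12.55 on the functional arrays, and its difference of -1.40 became -0.01 without arrays 2 and 3. Of the transcription factors, GATA6 lay lower without overlap (8.34 to 8.89 against 9.08 to 9.35; log2 difference -0.44, SE 0.12, limma adjusted p = 0.219), and NR5A2, an activator of steroid enzyme genes, overlapped at -0.51 (SE 0.24).

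**Figure D3:**
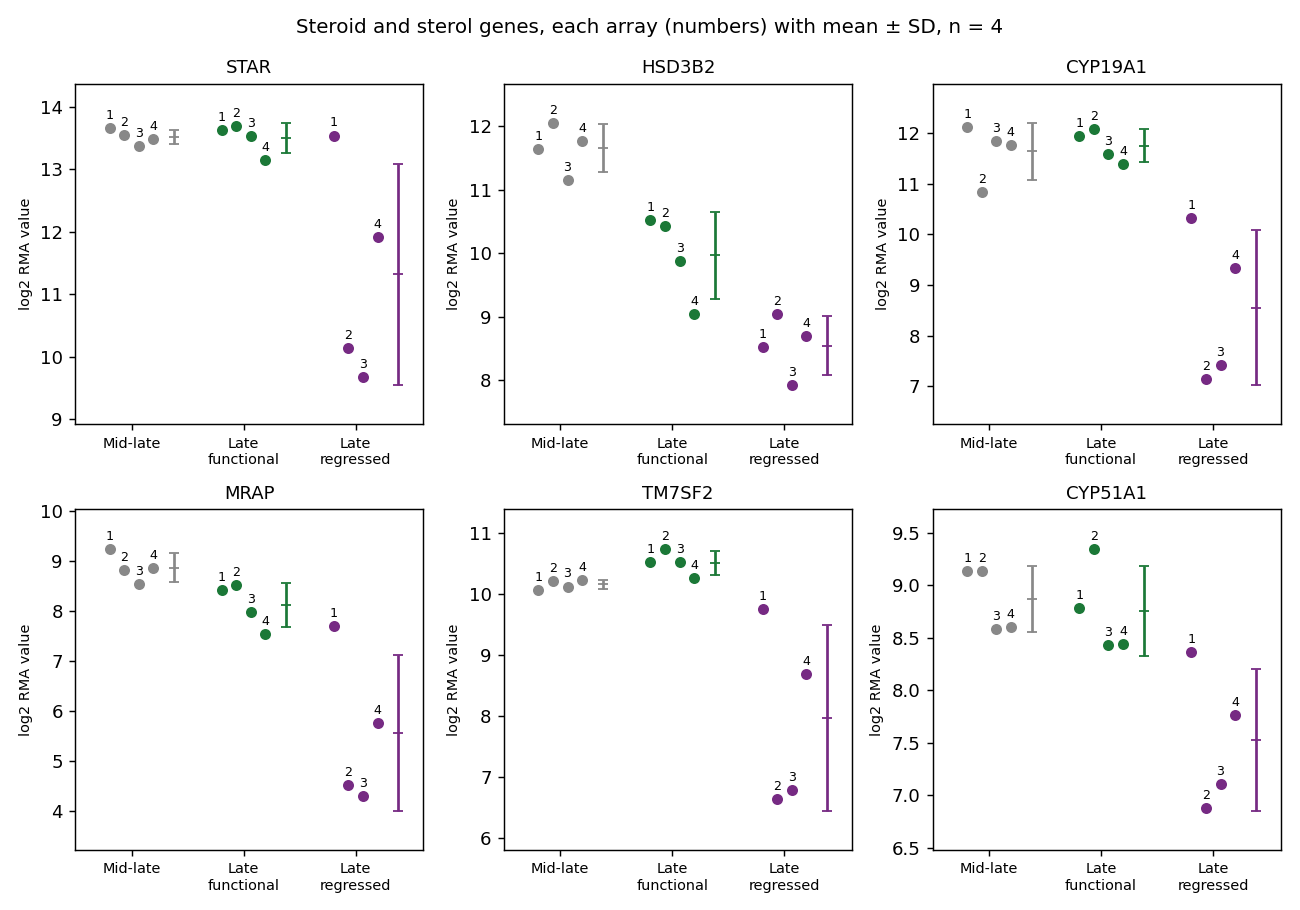
Log2 RMA values of 6 steroid and sterol genes on each of the 12 arrays, with points numbered by array and bars giving mean ± SD. Late regressed arrays 2 and 3 are the lowest in every panel but that of HSD3B2, and array 1 reaches the late functional range in STAR (13.54) and MRAP (7.70).

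Enzymes that make cholesterol had the lowest median of the 30 lists, -0.83. Of 18 measured genes 16 had the lower mean in late regressed glands, 12 of them with an unadjusted p below 0.05, as 7.78% of all genes had. For 2, TM7SF2 and CYP51A1, the groups did not overlap, where 3.28% of all genes lay lower without overlap. TM7SF2, a sterol reductase, read 9.76, 6.64, 6.79 and 8.70 against 10.53, 10.75, 10.54 and 10.27 (log2 difference -2.55, SE 0.55, limma adjusted p = 0.154). CYP51A1, the lanosterol demethylase, read 8.36, 6.88, 7.10 and 7.76 against 8.78, 9.35, 8.43 and 8.45. In both genes array 1 was the regressed array nearest to the functional glands, and arrays 2 and 3 were the farthest. STARD4, a cytosolic sterol carrier, and DHCR7, the last enzyme of one route to cholesterol, had differences of -1.75 and -2.11, the latter named after its values were seen. Array 1 lay within the functional range in both, and arrays 2, 3 and 4 lay below it. Without array 1, 7 of the 18 were called lower (limma), where 1.69% of all genes were, and without arrays 2 and 3 the median was -0.41. FDPS (0.15) and INSIG1 (0.47) had the higher mean.

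The list mean of enzymes that turn steroids over, by contrast, was lower on array 1 as well, mainly through DHRS9 and HSD11B1. The mean of the 11 measured steroid dehydrogenases and reductases was -0.36, -0.28, -0.25 and -0.26 on late regressed arrays 1 to 4 and -0.20 to 0.14 on the functional arrays, without overlap. The list's median was only -0.15, and 4 of the 11 had the higher mean. DHRS9, a retinol and hydroxysteroid dehydrogenase, read 4.84, 6.71, 7.24 and 6.90 against 9.38, 8.68, 7.79 and 7.03, with array 1 the lowest of all. HSD11B1, which regenerates active glucocorticoid, read 8.99, 8.31, 7.31 and 8.25 against 10.37, 10.25, 9.70 and 8.54. In these 2 genes late functional array 4 was again the lowest functional gland, and the groups overlapped only through it. SRD5A3 (7.12 to 7.43 against 7.57 to 7.80) and HSD17B4, a peroxisomal enzyme (9.13 to 9.29 against 9.34 to 9.54), lay lower without overlap by small amounts, -0.38 and -0.21. SRD5A3 has 3 probe sets, and 0 of its others had a difference in the same direction, so its direction is uncertain.

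Lipid handling genes under oxysterol receptors had the higher mean in late regressed glands for 13 of 17, with a median of 0.34 that was 0.04 without arrays 2 and 3. LPL, which releases fatty acids from lipoproteins, read 10.65 and 10.77 on arrays 2 and 3, but 6.96 and 6.81 on arrays 1 and 4, against 5.96 to 6.91 in late functional glands (log2 difference 2.44, SE 0.82, limma adjusted p = 0.286). Its other probe sets gave 2.37, 0.30 and -0.04. CD36, a scavenger receptor, was at 9.69 and 10.48 on arrays 2 and 3 and at 7.53 and 8.21 on arrays 1 and 4, against 7.50 to 7.62. FABP5, a fatty acid binding protein named after its values were seen, read 8.83, 11.46, 11.97 and 9.51, against 8.76 to 9.05, with arrays 2 and 3 again the highest. The other probe set of FABP5 did not show this, with a difference of 0.15 and overlapping groups. These 3 genes are also expressed by macrophages. SREBF1, the regulator of fatty acid synthesis, read 8.31 to 8.79 against 7.99 to 8.31 and touched the functional range only at array 4. SREBF1 has 3 probe sets, and only 1 of its others had a difference in the same direction.

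Macrophage markers moved with that split between regressed glands. The mean of 13 measured markers was 0.70 and 1.26 above the late functional mean on late regressed arrays 2 and 3, whereas arrays 1 and 4 stood at -0.39 and -0.69. Of the 13, 0 had an unadjusted p below 0.05 (limma), and their median difference of 0.24 was -0.50 without arrays 2 and 3. CYBB, the phagocyte oxidase subunit, read 10.30 and 10.87 on arrays 2 and 3 and 7.33 and 7.27 on arrays 1 and 4, against 7.69 to 8.21 in late functional glands. CD68 read 9.71 and 10.75 against 8.21 and 8.18 on the same pairs. The glands with the lowest STAR and TM7SF2 values were thus those with the highest macrophage marker levels, and the part of cell makeup in the steroid and lipid results was not tested. LYZ, lysozyme, was likewise higher on arrays 2 and 3 (10.98 and 11.27) than on arrays 1 and 4 (9.86 and 9.19), but arrays 2 and 3 lay within the functional range of 10.68 to 11.58. CYBB, CD68 and LYZ were named after their values were seen. CYBB and LYZ had the highest and lowest differences of the list, 0.98 and -0.83.

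**Figure D4:**
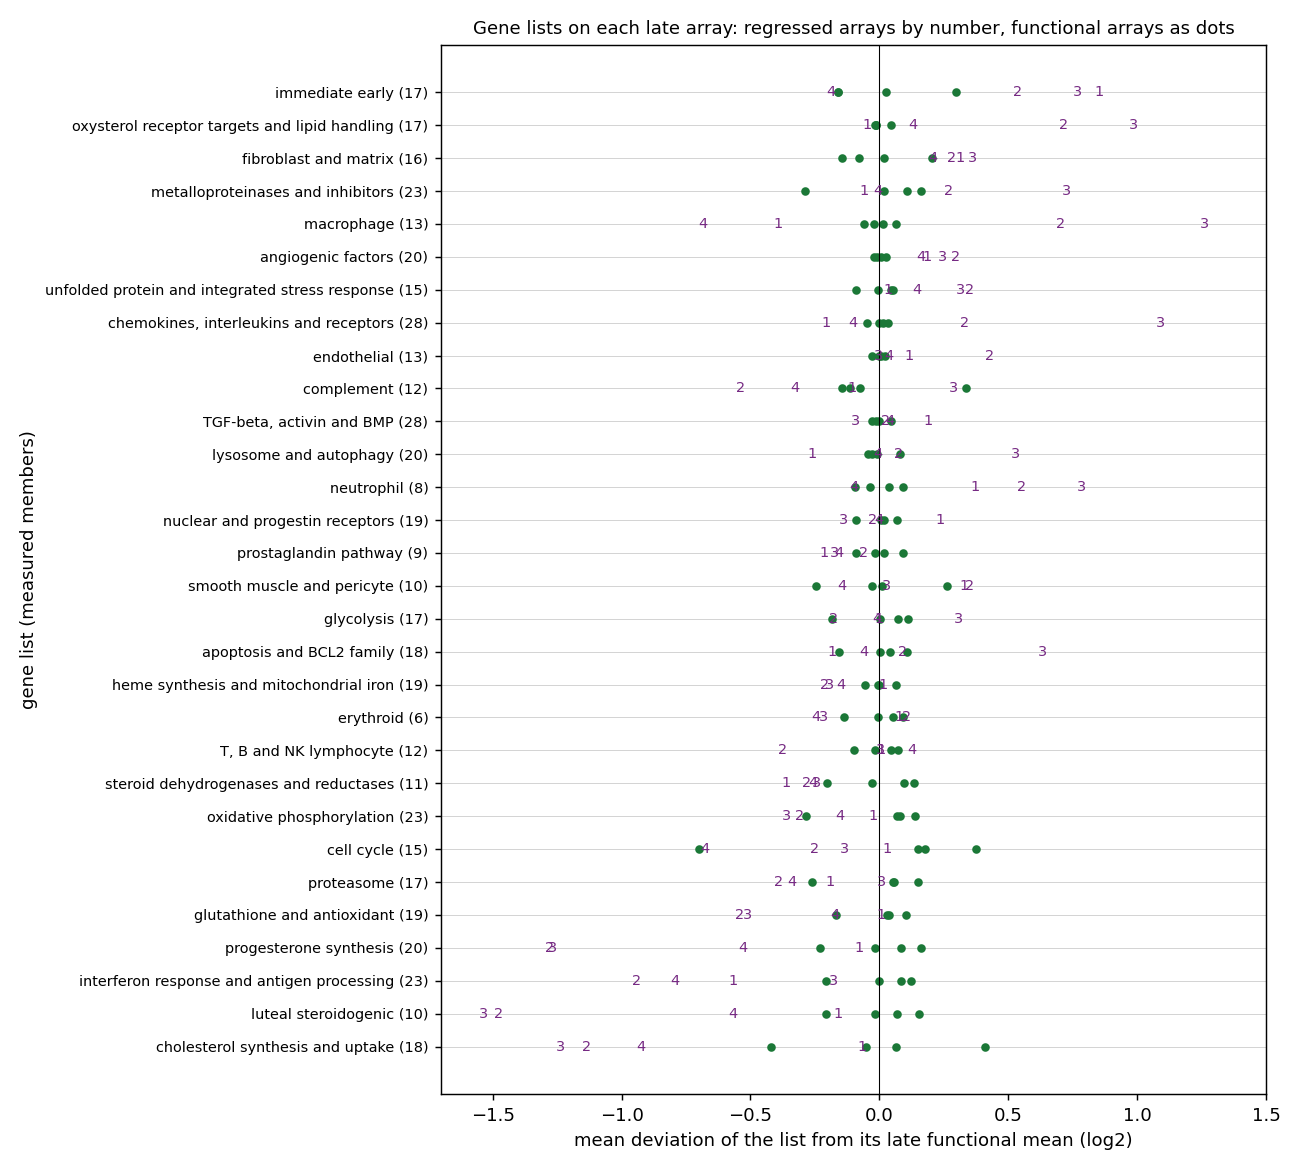
Mean log2 deviation of each of the 30 gene lists from its late functional mean, with late regressed arrays drawn as their numbers and late functional arrays as dots; the number of measured genes is in brackets. Arrays 2 and 3 lie far to the left for the cholesterol, luteal and progesterone lists and far to the right for macrophage markers. The means of steroid dehydrogenases, fibroblast genes and angiogenic factors keep all 4 regressed arrays on 1 side of the functional dots. For steroid dehydrogenases this comes mainly through DHRS9 and HSD11B1.

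Complement C1q, made mainly by macrophages, did not follow the macrophage markers. C1QA read 10.02, 5.73, 8.76 and 9.03 in late regressed and 10.41, 10.30, 10.20 and 10.86 in late functional glands (log2 difference -2.05, SE 0.74, limma adjusted p = 0.317). C1QC lay at 8.81, 5.21, 7.81 and 8.02 against 8.90 to 9.39, and C1QB at 9.54, 6.40, 8.92 and 8.81 against 9.58 to 10.12. By these probe sets all 3 chains were below the functional range on all 4 regressed arrays, by little on array 1 and by most on array 2. Array 2 is also the array with the widest 3′ to 5′ gap. The other probe set of C1QA had a difference of -1.49 with overlap. There regressed arrays 1 and 4, at 7.70 and 7.65, lay above late functional array 4 at 7.35. Of the rest of the complement list, CD55, which shields cells from complement, averaged 0.79 higher with overlap, and the list's median was 0.11, or -0.18 without arrays 2 and 3.

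Chemokines and cytokines divided in the same manner as the macrophage genes. CCL2, the monocyte attractant, read 11.43 and 11.86 on late regressed arrays 2 and 3 but 5.35 and 7.08 on arrays 1 and 4, against 5.51 to 6.36 in late functional glands. Its difference of 3.01 (SE 1.20, limma adjusted p = 0.362) was 0.30 without arrays 2 and 3. CCL3 and IL33 had the same form, at 2.26 and 1.84. CCL2, CCL3 and IL33 were named after their values were seen. A few members were instead level over the 4 regressed glands. CXCR4, the receptor of CXCL12, read 9.77, 9.56, 9.96 and 9.67 against 8.74, 8.80, 8.87 and 9.38 (log2 difference 0.79, SE 0.22, limma adjusted p = 0.235). IL10, an anti-inflammatory cytokine, read 7.18, 7.69, 7.35 and 7.86 against 6.81 to 7.03. Both were higher on every regressed array, and both kept their difference without arrays 2 and 3, at 0.78 and 0.59. CX3CL1, a membrane-bound chemokine, lay lower without overlap (5.44 to 6.21 against 6.37 to 6.56).

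Among genes whose groups did not overlap, those with the widest differences upward were of several kinds. GNLY, granulysin of cytotoxic lymphocytes, read 8.82, 8.98, 9.30 and 9.05 in late regressed glands and 6.43, 6.30, 6.45 and 7.90 in late functional glands (4.83-fold; log2 difference 2.27, SE 0.40, limma adjusted p = 0.103). The regressed glands agreed closely, and the nearest functional gland was array 4. The gene's other probe set did not show this, with a difference of 0.01 and overlapping groups. Other lymphocyte markers gave no like shift: 4 of 12 had the higher mean and 8 the lower, and CD4, a helper T cell co-receptor also found on macrophages, lay lower without overlap (4.70 to 6.06 against 6.42 to 6.52). DSP, desmoplakin of cell junctions, read 6.42, 7.73, 7.05 and 7.19 against 5.03, 5.08, 5.35 and 4.87 (4.04-fold; log2 difference 2.01, SE 0.28, limma adjusted p = 0.0613). Its groups were far apart, and its difference without arrays 2 and 3 was 1.72.

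RASD1, a small GTPase that glucocorticoids induce, read 8.59 to 10.21 in late regressed and 6.37 to 8.56 in late functional glands, with functional array 4 just under regressed array 1. APOD, a lipid-binding apolipoprotein, read 9.45 to 11.43 against 8.32 to 8.90, and SFRP2, a secreted Wnt antagonist, 6.06 to 8.90 against 4.72 to 5.36. The groups were separate in each, and APOD was the one of these whose highest value was on array 4. METRNL, a secreted factor, ALDH1A3, which makes retinoic acid, and the mRNA decapping enzyme gene DCP2 averaged 1.78, 1.74 and 1.84 higher. METRNL read 6.05, 8.32, 8.39 and 7.52 against 5.66 to 5.94, so that array 1 was barely above the functional range, and without array 1 its limma adjusted p was 0.00148.

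The widest differences downward among genes without overlap, beside those given above, were as follows. KALRN, an exchange factor for small GTPases, read 7.40, 5.72, 4.81 and 6.59 against 9.06, 8.94, 8.91 and 7.99 (6.03-fold; log2 difference -2.59, SE 0.44, limma adjusted p = 0.0998). GPM6A, a membrane glycoprotein, read 5.21, 4.84, 3.84 and 4.01 against 7.19, 7.18, 6.20 and 6.34 (log2 difference -2.26, SE 0.37, limma adjusted p = 0.0937). ODAM, a secreted protein of junctional epithelium, read 3.71 to 5.09 against 5.71 to 7.58. In KALRN, arrays 2 and 3 were the lowest, in GPM6A arrays 3 and 4. HPGD, which inactivates prostaglandins, read 8.14, 7.95, 6.97 and 9.02 against 10.21, 10.09, 10.03 and 9.39 (log2 difference -1.91, SE 0.45, limma adjusted p = 0.183), whereas the other prostaglandin genes measured differed by no more than 0.56. ATP2B4, a plasma membrane calcium pump, had a difference of -2.43, with array 2 at 3.71 far below the others at 6.70 to 8.25. WNT5A, a Wnt ligand named after its values were seen, read 7.45 to 8.88 against 9.57 to 10.23. The mid-late mean of KALRN was 7.02 ± 0.12, nearer to its late regressed mean of 6.13 ± 1.11 than to its late functional mean of 8.72 ± 0.50. For ODAM, HPGD, ATP2B4 and WNT5A the mid-late mean was nearer to the late functional mean, and for GPM6A it lay between the late means.

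Among the 8 genes with the smallest p-values were also 4 with smaller but tight differences. CLCN3, an endosomal chloride and proton exchanger, read 9.73, 9.19, 9.49 and 9.54 against 10.47, 10.35, 10.35 and 10.35 (log2 difference -0.90, SE 0.11, limma adjusted p = 0.0506). CACNB2, a subunit of voltage-gated calcium channels, read 5.55, 5.47, 5.47 and 6.04 against 6.58 to 7.20 (log2 difference -1.25, SE 0.18, limma adjusted p = 0.0672). The 4 and 3 probe sets of these genes all gave the lower mean in late regressed glands. FAM241A and TEX30 also lay lower without overlap, with differences of -1.19 and -0.99. The mid-late mean of CACNB2 was 5.51 ± 0.28, beside its late regressed mean of 5.63 ± 0.28. For CLCN3, FAM241A and TEX30 the mid-late mean was nearer to the late functional mean.

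Immediate early genes, which respond within minutes to growth factors or stress, had the highest median of the 30 lists, 0.44, which was 0.13 without arrays 2 and 3, and 12 of 17 had the higher mean. The list's mean was 0.85, 0.54 and 0.77 above the late functional mean on arrays 1, 2 and 3, and -0.19 on array 4. EGR2, a zinc finger factor, showed this most sharply, with 7.86, 8.03, 8.14 and 4.93 against 4.45 to 5.12. Here array 1 was high and array 4 was at the functional level, unlike in the steroid genes. CCN2 and CCN1, matrix-associated growth factors, lay higher on all 4 regressed arrays (10.41 to 11.99 against 9.61 to 10.24, and 8.50 to 10.39 against 7.80 to 8.25). The other 2 probe sets of CCN2 differed by -0.19 and 0.07, with overlap. ZFP36, which destabilises cytokine mRNAs, lay lower without overlap (7.55 to 8.91 against 9.15 to 9.51). S100A8, a calcium-binding protein of neutrophils and monocytes, had the pattern of EGR2, with 7.06, 7.80, 7.25 and 4.50 against 4.41 to 4.80, although 6 of the 8 measured neutrophil markers lay below the low-signal level.

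In the stress response lists, DDIT3, the CHOP transcription factor of the unfolded protein response, read 8.55, 7.98, 8.35 and 7.45 against 6.65, 6.86, 6.97 and 6.44 (log2 difference 1.35, SE 0.23, limma adjusted p = 0.0998). It was higher on all 4 regressed arrays, with array 1 the highest. TRIB3, which DDIT3 induces, averaged 0.66 higher but read 5.19 on array 1, below all functional arrays, and DDIT4, an inhibitor of mTOR signalling, lay lower without overlap (-0.51). The median of the 15 measured genes was 0.18, or -0.00 without arrays 2 and 3. Among genes of cell death, CASP8, an initiator caspase, read 5.89, 4.13, 5.88 and 5.82 against 5.96 to 6.42. It lay just below the functional range on 3 arrays and far below it on array 2. PMAIP1, a pro-apoptotic BCL2 family member, read 3.69, 5.77, 6.27 and 4.51 against 3.64 to 4.05. By this probe set array 1 alone lay within the functional range. By the gene's other probe set arrays 1 and 4, at 3.72 and 3.97, both lay within it (3.29 to 4.32). In both, arrays 1 and 4 and all functional arrays lay below the low-signal level.

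All 17 measured proteasome subunit genes had the lower mean in late regressed glands, by small amounts, and none without overlap. The median was -0.23, or -0.25 without arrays 2 and 3. The list's mean was -0.19, -0.39, 0.01 and -0.34 on the late regressed arrays and 0.06, 0.15, 0.05 and -0.26 on the functional ones, so array 3 lay among functional glands and functional array 4 among regressed ones. PSMB2 was the member with the smallest p (log2 difference -0.50, SE 0.15, limma adjusted p = 0.254). Genes of oxidative phosphorylation had the lower mean for 19 of 23, with a median of -0.16 and none without overlap. NDUFV1, a subunit of complex I, read 8.85, 8.09, 8.28 and 8.80 against 9.22, 9.20, 9.07 and 8.51. Cell cycle genes were lower by means for 14 of 15, yet late functional array 4 (-0.70) and late regressed array 4 (-0.68) shared the lowest values of the list's mean.

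Glutathione and antioxidant genes had the lower mean for 13 of 19, with a median of -0.28 that was -0.06 without arrays 2 and 3. MGST1, a microsomal glutathione transferase, read 10.18, 8.57, 8.68 and 8.28 against 10.60, 11.10, 10.38 and 9.93, and GSTA3, a transferase that also isomerises steroid precursors, 11.82, 9.52, 9.51 and 11.14 against 11.78 to 12.31. In both, array 1 fell within the functional range and the other 3 below it. Both were called without array 1 (limma adjusted p = 0.00846 and 0.0194).

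Angiogenic factors and fibroblast genes had modestly higher list means on all 4 regressed arrays, whereas the endothelial and smooth muscle lists overlapped between the groups. The mean of 20 angiogenic factors and receptors was 0.18, 0.29, 0.25 and 0.16 above the late functional mean, where the functional arrays ran from -0.02 to 0.03. Yet only 2 of the 20 lay higher without overlap (2.63% of all genes do): VEGFB, a vascular growth factor (8.12, 9.03, 8.63 and 8.25 against 7.78 to 7.86), and the Notch ligand DLL4 (8.20 to 8.73 against 8.03 to 8.11). Among 13 endothelial markers, the tight junction gene CLDN5 read 8.75, 9.27, 8.67 and 8.78 against 8.17 to 8.27 (log2 difference 0.63, SE 0.12, limma adjusted p = 0.110). EGFL7, secreted by endothelium, also lay higher without overlap (8.37 to 9.25 against 8.07 to 8.34), but PECAM1 differed by 0.14 and VWF by -0.27 with overlap. The mean of 16 fibroblast and matrix genes was 0.21 to 0.36 above the late functional mean on the regressed arrays and -0.15 to 0.20 on the functional ones. FBLN1, a matrix glycoprotein, read 5.91, 7.38, 6.18 and 7.06 against 5.15 to 5.68, while the main collagens COL1A1 and COL3A1 averaged lower, at -0.59 and -0.62.

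Nuclear and progestin receptors did not share a direction: of 19 measured, 11 had the higher mean and 8 the lower, with a median of 0.04. Only 1 lay higher and 1 lower without overlap, where 2.63% and 3.28% of all genes do so. PGRMC1, a membrane protein tied to progesterone responses, read 11.06, 10.89, 10.60 and 11.04 against 11.51, 11.70, 11.34 and 11.79 (log2 difference -0.69, SE 0.12, limma adjusted p = 0.104). NR2F2, an orphan nuclear receptor of stromal and vascular cells, read 9.98, 10.11, 9.99 and 9.76 against 9.41, 9.47, 9.64 and 9.48 (log2 difference 0.46, SE 0.09, limma adjusted p = 0.110). PGRMC1 and NR2F2 were both separate on every array, and both were named after their values were seen. PGR, the nuclear progesterone receptor, lay below the low-signal level in both groups (3.45 to 4.13 against 3.42 to 3.66). ID1, a target of BMP signals, lay lower without overlap (8.58 to 9.34 against 9.92 to 10.23; log2 difference -1.10, SE 0.19, limma adjusted p = 0.0975). The ligands TGFB3 and BMP2 lay on the other side, at 5.80 to 6.75 against 5.40 to 5.80 and at 5.79 to 7.51 against 5.12 to 5.45, and TGFB3 on array 1 was barely above the functional range.

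**Figure D5:**
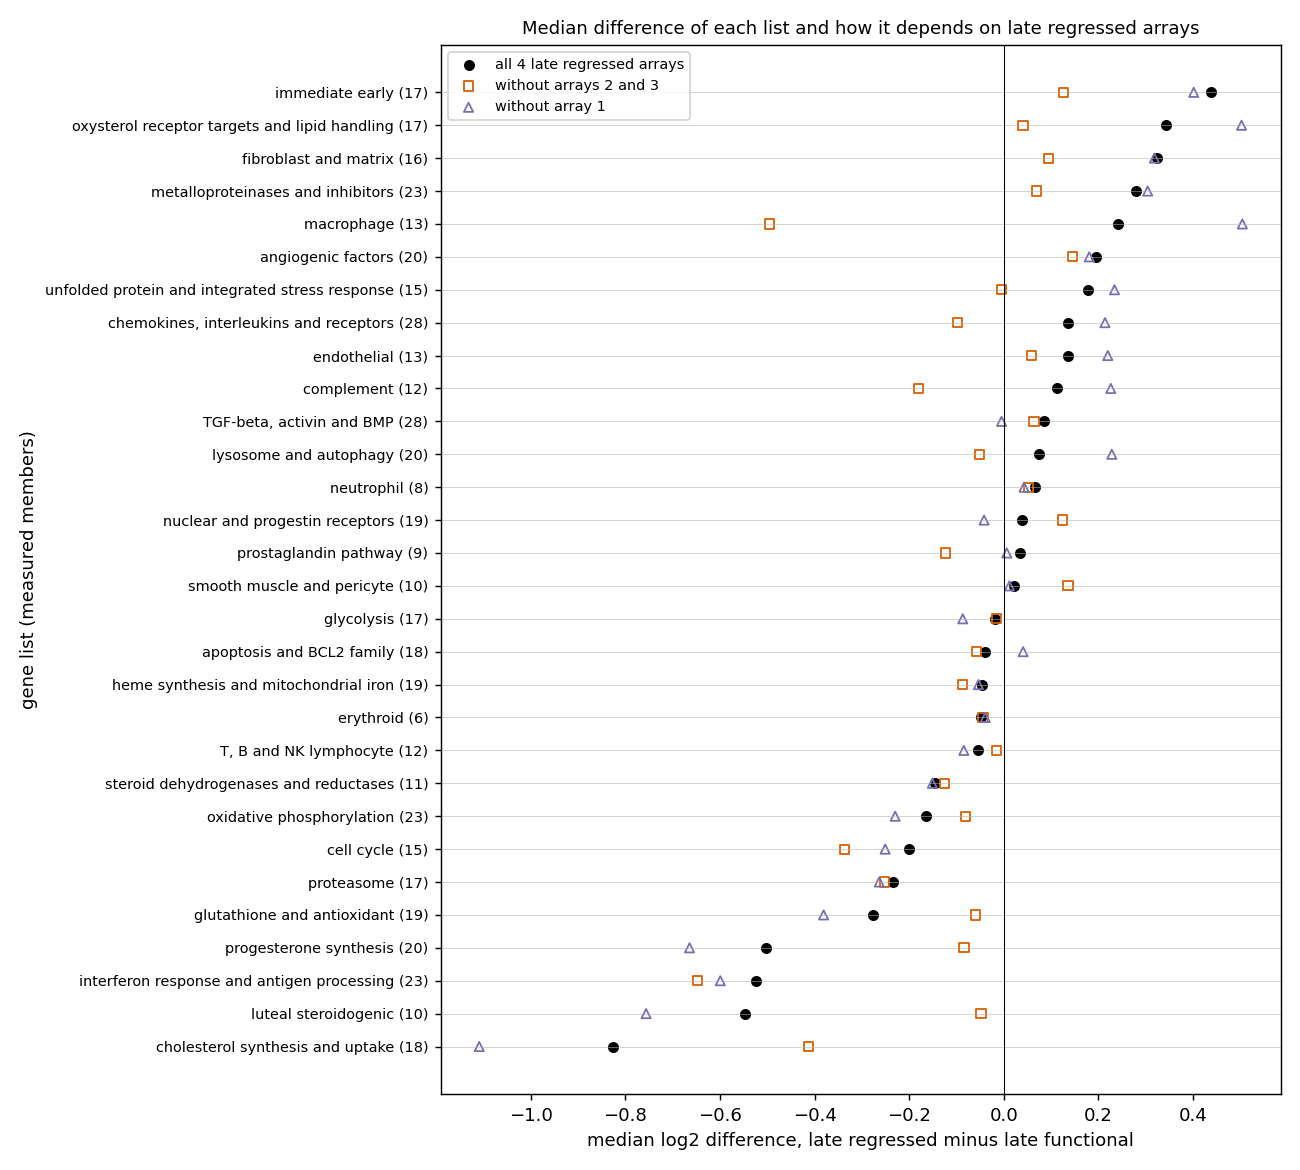
Median log2 difference (late regressed minus late functional) of each of the 30 gene lists, with all arrays (black), without late regressed arrays 2 and 3 (squares) and without array 1 (triangles). The interferon list keeps its median (-0.52, -0.65 and -0.60), whereas the progesterone list goes from -0.50 to -0.08 and the macrophage list from 0.24 to -0.50 without arrays 2 and 3.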

How the data were processed

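The authors deposited log2 values made with RMA, per the submitters' processing notes; neither its version nor its settings are stated there. 158 array controls were left out of 52865 probe sets. The platform annotation gives no gene for 27390 of those tested, exactly 1 for 24956 and more than 1 for 361. Of 24616 symbols looked up by Entrez ID, 0 changed. The low-signal level is 4.64, the 95th percentile of 674 probe sets with the prefix NC, whose target is not given. limma 3.58.1 in R 4.3.3 fitted 3 group means to 12 arrays without covariates. The script was tested on simulated data. Batches are not given, and the number of arrays limits precision.

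Genes were named by rule: called probe sets, a short set of luteal genes regardless of value, the 8 highest and 8 lowest differences without overlap (unadjusted p below 0.05, higher mean above the low-signal level), the 8 smallest p-values, and 3 genes from each list with 1 in 5 members past an unadjusted p of 0.05 or without overlap. Further genes were named after their values were seen, 13 of them followed through all alternatives. Members and lists were chosen with earlier results of these data known. Alternatives were filters, centring, renewed quantile normalization, array weights, covariates, a trended robust prior, the replicate number as a block and arrays left out.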

Additional observations from a re-analysis of the deposited data

Results flagged for a closer look

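Of 266 groups of 4 arrays examined, 22 held an array far from the other 3 by Dixon's ratio at its 95% critical value. Chance gives about 1 in 20 groups. Late functional array 4 was that array in 12 of the 22, late regressed array 2 in 3, late regressed arrays 3 and 4 and late functional array 3 in 2 each, and late functional array 1 in 1.

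Late functional array 4 was lower than the other functional arrays in genes of the interferon and antigen processing list: PSMB8 (8.21 against 9.48 to 9.73), PSMB10 (9.21 against 9.68 to 9.72) and ISG15 (7.77 against 8.53 to 8.67). It was lower in KALRN (7.99 against 8.91 to 9.06), NDUFA4 (10.50 against 10.72 to 10.75), PSMB7 (10.31 against 10.71 to 10.74), CASP8 (5.96 against 6.38 to 6.42) and PMAIP1 (3.64 against 3.99 to 4.05). It was higher in GNLY (7.90 against 6.30 to 6.45). Its list means stood apart for oxidative phosphorylation (-0.284 against 0.0682 to 0.136), complement (0.336 against -0.146 to -0.0738) and the oxysterol list (0.0449 against -0.0188 to -0.0131).

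Late regressed array 2 was apart in CASP8 (4.13 against 5.82 to 5.89), EGFL7 (9.25 against 8.37 to 8.49) and the 3′ to 5′ gap of control genes (2.52 against 0.462 to 0.699). Late regressed array 3 was low in GATA6 (8.34 against 8.85 to 8.89) and in the mean of the NC probe sets (3.48 against 3.57 to 3.58). Late regressed array 4 was low in EGR2 (4.93 against 7.86 to 8.14) and high in CACNB2 (6.04 against 5.47 to 5.55). Late functional array 3 was low in SAMD9L (9.03 against 9.49 to 9.55) and S100A8 (4.41 against 4.74 to 4.80), and late functional array 1 was high in CLCN3 (10.47, with the other 3 at 10.35).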

How the results depend on the processing

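The count of calls, 1 in the fit reported, was 0 with the 3′ to 5′ gap as a covariate, with only the 8 late arrays, without late regressed arrays 2 and 3, and with the replicate number as a block. It was 2 with median centring, 5 with the NC mean as a covariate or renewed quantile normalization, 10 above the median signal, 11 with array weights, and 15 above the NC level (by the highest group mean, so some pass only through the group where they are high) or with a trended robust prior. Leaving out 1 array gave 0 to 924 (late regressed array 1 924, late functional array 4 149, late regressed array 4 87); the cause was not tested. The block rests on numbers that do not pair the glands: correlations of same-numbered arrays were 0.1889, 0.0517, 0.0243 and 0.2957, and not every array correlates best with its own number. Probe sets with an unadjusted p below 0.05 numbered 6244, 3646 without arrays 2 and 3, and 4202 to 8749 without 1 array. Probe sets without overlap numbered 4059 higher and 3456 lower without arrays 2 and 3, 852 lower above the median signal and 840 above the NC level (fewer probe sets tested), and 1646 to 3108 higher and 1703 to 3038 lower without 1 array (fewer arrays to overlap). CYBB reversed to -0.66 without arrays 2 and 3. Of 2293 values of named genes under an alternative, 2189 kept direction and side of the threshold, 91 gained a call and 12, all of FAM210B, lost it. Of 720 list medians 698 moved by less than the spread.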

Other observations

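Metalloproteinases and their inhibitors had the higher mean in late regressed glands for 16 of 23, with a median of 0.28 that was 0.07 without arrays 2 and 3. MMP1, interstitial collagenase, read 5.29 and 6.46 on late regressed arrays 2 and 3 and 3.27 and 3.30 on arrays 1 and 4, against 3.06 to 3.20 in late functional glands. MMP12, macrophage elastase, was instead highest on late functional arrays 1 to 3, at 4.71, 5.48 and 6.34, with 2.99 on array 4. The late regressed arrays read 3.04, 3.09, 4.66 and 2.98, with array 3 again the highest of them. For MMP12, late functional array 4 and late regressed arrays 1, 2 and 4 lay below the low-signal level. For MMP1, late regressed arrays 1 and 4 and all late functional arrays did so. ADAMTS5, a proteoglycan-cleaving protease, lay lower without overlap (log2 difference -0.87, SE 0.28, limma adjusted p = 0.273).

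Lysosomal genes split within the list: CTSZ, a carboxypeptidase, averaged -0.86 and ASAH1, acid ceramidase, 0.53, with a median of 0.08 over 20 genes. In glycolysis, PFKP, a phosphofructokinase, read 8.34, 9.68, 9.58 and 8.71 against 8.21 to 8.30, while the other 16 genes overlapped between the groups. Smooth muscle and pericyte markers differed in both directions, with SYNPO2, an actin-binding protein, at 6.24 to 7.56 against 5.71 to 6.11 and MCAM, an adhesion molecule, averaging -0.65.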
